A study of Mus musculus with 9 samples.

Results

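Polyamines are small, positively charged molecules (putrescine, spermidine and spermine) that bind nucleic acids and that dividing cells need. Ornithine decarboxylase, encoded by Odc1, makes putrescine from ornithine, the synthases encoded by Srm and Sms extend it to spermidine and then spermine, and antizymes such as Oaz2 send ornithine decarboxylase to the proteasome unless an antizyme inhibitor such as Azin1 binds them. In the other direction, the acetyltransferase encoded by Sat1 marks spermidine and spermine for export or for oxidation by Paox, and Smox oxidises spermine directly to spermidine with release of hydrogen peroxide. These 8 genes of polyamine metabolism were described in mouse mammary tissue. A gene was represented by the probe set whose only gene symbol is that gene, and by the one with the highest mean over the 9 arrays where there were several. By this rule 6 of the 8 genes were measured, out of 22180 genes with such a probe set, and all 6 were among the 17478 genes that passed the filter on low values. Sms shares its probe set with the pseudogene Sms-ps, and the annotation used here names no probe set for Paox, so both were not analysed here. The list was drawn up with earlier results of these arrays known, and the mean level chose between the probe sets of Oaz2. The changes and p-values below therefore describe these 6 genes and are not independent evidence about polyamine metabolism.

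The samples were 3 metastatic mammary tumors and 3 non-metastatic mammary tumors from female FVB mice labelled Wnt1+/-, which carry Wnt1 under the mouse mammary tumor virus promoter, active mainly in mammary epithelium, and 3 normal mammary glands from female FVB littermates labelled Wild-type Wnt1. The design text of the series can instead be read as taking all 9 samples from transgenic mice. The genotype label was followed here, and if normal glands carried the transgene, the differences from them would not compare carriers with non-carriers. All mice drank 6% sucrose with doxycycline at 200 µg/ml from 6 weeks of age, and the sources used here give no transgene under tetracycline control. Tumors were collected at a size of 20 mm, at 281 to 300 days of age in the metastatic group and 222 to 354 days in the non-metastatic group, while normal glands came from mice of 533 to 556 days, so age and tumor status cannot be told apart. Tumor onset was at 251, 194 and 242 days in metastatic tumors 1 to 3 and at 306, 192 and 247 days in non-metastatic tumors 1 to 3. The time from onset to collection therefore also differed between mice. Each array held RNA of frozen tissue from 1 mouse. Values are log2 intensities after RMA, so a difference of 1 is a 2-fold difference.

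Array medians lay between 5.80 and 5.94, and the number of arrays limits the precision. The mean log2 level of 7 measured luminal epithelial markers was 10.07 to 11.06 in metastatic tumors, 10.12 to 10.33 in non-metastatic tumors and 8.79 to 10.16 in normal glands. The value of 8.79 was that of normal gland 2. With each marker centred on its mean over the arrays, this gland was at -1.39 and normal glands 1 and 3 at -0.06 and -0.01. The markers differed, however: Krt8, Krt18, Epcam and Cdh1 were each higher in every tumor than in every normal gland. Krt19, Elf5 and Foxa1 overlapped. With all 6 tumors set against normal gland, 3 of the 7 rose (limma adjusted p under 0.05), where 13.6% of all genes rose. Normal gland 2 stood apart: its mean over 8 skeletal muscle markers was 10.13 where the lowest normal gland had 5.98, and its mean over 8 markers of differentiated epidermis was 10.55 where the lowest normal gland had 5.66. The tumors ranged from 5.71 to 6.13 (metastatic) and 5.60 to 8.12 (non-metastatic) for muscle, and from 5.67 to 6.08 and 5.70 to 6.92 for epidermis. Of the 8 measured white adipocyte markers, 8 were lower in each tumor group than in normal gland. By limma at an adjusted p under 0.05, 6% of all genes fell in metastatic and 7.6% in non-metastatic tumors. Adipocyte marker means were 6.05 to 6.81 in metastatic tumors and 5.75 to 7.53 in non-metastatic tumors, against 10.88 to 11.92 in normal glands. In such tissue pieces, fewer cells of a type and less RNA per cell cannot be told apart.

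Promoter windows of 250 bases before and 50 bases after a transcript start (RefSeq, GRCm38.p6) were found for 6 of the 8 genes. They are shown for the 3 genes that were higher in both tumor groups, Smox, Odc1 and Sat1, and for Oaz2, which passed the test in neither. Capitals mark every match, on either strand, to GGGCGG (the GC box) or TGACNNNGC (the core of the antioxidant response element).
Smox, chr2:131491612-131491911, plus strand: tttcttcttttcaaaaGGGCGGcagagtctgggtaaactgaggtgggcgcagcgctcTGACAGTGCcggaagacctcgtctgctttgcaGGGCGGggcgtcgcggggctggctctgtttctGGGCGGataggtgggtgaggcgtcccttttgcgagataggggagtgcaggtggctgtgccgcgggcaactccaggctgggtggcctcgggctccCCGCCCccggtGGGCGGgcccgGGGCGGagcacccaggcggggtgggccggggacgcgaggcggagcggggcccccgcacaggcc
Odc1, chr12:17544623-17544922, plus strand: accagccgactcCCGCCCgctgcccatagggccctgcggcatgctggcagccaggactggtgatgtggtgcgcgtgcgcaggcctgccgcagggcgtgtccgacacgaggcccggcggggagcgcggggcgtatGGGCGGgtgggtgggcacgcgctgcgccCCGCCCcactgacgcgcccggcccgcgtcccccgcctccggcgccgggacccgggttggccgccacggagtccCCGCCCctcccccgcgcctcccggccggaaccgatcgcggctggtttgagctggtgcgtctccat
Sat1, chrX:155216400-155216699, minus strand: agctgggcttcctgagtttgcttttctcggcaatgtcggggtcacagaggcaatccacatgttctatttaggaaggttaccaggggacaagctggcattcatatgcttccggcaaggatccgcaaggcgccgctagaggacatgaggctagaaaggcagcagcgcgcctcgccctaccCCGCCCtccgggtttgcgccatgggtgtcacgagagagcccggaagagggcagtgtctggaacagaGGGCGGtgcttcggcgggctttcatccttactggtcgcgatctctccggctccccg
Oaz2, chr9:65676298-65676597, plus strand: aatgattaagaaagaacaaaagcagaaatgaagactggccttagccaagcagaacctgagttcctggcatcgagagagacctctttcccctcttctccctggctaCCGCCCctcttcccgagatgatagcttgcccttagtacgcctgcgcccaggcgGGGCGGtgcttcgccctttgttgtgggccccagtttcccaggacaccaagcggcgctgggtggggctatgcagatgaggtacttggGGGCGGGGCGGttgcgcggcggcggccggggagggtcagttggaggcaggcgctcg
The Smox window held 6 matches to GGGCGG, the Odc1 window 4, the Sat1 window 2 and the Oaz2 window 4, of which the 2 nearest the start overlap. Of all 32851 promoter windows in the table, 35.7% held at least 1 match to it. The TGACNNNGC match in Smox starts at position -193 from the transcript start, and 12.4% of all windows held one. No match was found in these 4 windows to CACGTG (the E-box, in 7.15% of all windows), CTTTGAT (a TCF/LEF motif, 3.73%), TATAAA (13.6%) or CCAAT (37.4%), which says only that these letters are not there. G and C made up 71% of the Smox window, 78% of the Odc1 window, 60.3% of the Sat1 window and 61.7% of the Oaz2 window, where the median of all windows was 52.7%. GC boxes were thus found in the windows of the 3 genes that rose and in that of Oaz2.

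On the synthetic side of the pathway, Odc1 was higher in both tumor groups than in normal gland. Odc1 (probe set 17274294, chromosome 12) was measured at 9.38, 10.16 and 9.59 in metastatic tumors, 9.38, 9.66 and 9.42 in non-metastatic tumors and 8.53, 8.43 and 8.91 in normal glands (log2 level). All 6 tumors lay above all 3 normal glands, the tumor groups overlapped, and metastatic tumor 2 was the highest. Group means were 9.71 ± 0.41 in metastatic tumors, 9.49 ± 0.15 in non-metastatic tumors and 8.62 ± 0.25 in normal glands (SD, n = 3 each). Against normal gland, Odc1 rose by 1.09 in metastatic tumors (SE 0.22, limma adjusted p = 0.021), a 2.13-fold difference, and by 0.87 in non-metastatic tumors (SE 0.22, adjusted p = 0.030), a 1.82-fold difference. The call in metastatic tumors was lost without metastatic tumor 3 (adjusted p = 0.058) and without normal gland 1 or 2 (0.067 each). That in non-metastatic tumors was lost without non-metastatic tumor 1, 2 or 3 (0.055, 0.094 and 0.057) and without normal gland 1 or 2 (0.092 and 0.096). The difference itself stayed between 0.77 and 1.25 in both comparisons with every array left out in turn.

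Srm, the spermidine synthase gene (probe set 17421694, chromosome 4), rose in non-metastatic tumors. Its log2 levels were 10.14, 10.04 and 9.85 in metastatic tumors, 10.62, 10.29 and 10.25 in non-metastatic tumors and 9.65, 9.51 and 10.07 in normal glands. The non-metastatic tumors lay above all other arrays, whereas metastatic tumors 2 and 3 lay below normal gland 3. The difference from normal gland was 0.64 in non-metastatic tumors (SE 0.17, limma adjusted p = 0.038) and 0.27 in metastatic tumors (SE 0.17, adjusted p = 0.34, 95% interval -0.13 to 0.66). The call in non-metastatic tumors was lost when any of the 6 tumors, normal gland 1 or normal gland 2 was left out (adjusted p between 0.054 and 0.11), so it held only with all 9 arrays or without normal gland 3.

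The regulators of ornithine decarboxylase did not pass the test in any comparison. Azin1, the antizyme inhibitor (probe set 17316700, chromosome 15), had log2 levels of 9.46, 10.19 and 9.05 in metastatic tumors, 9.40, 9.34 and 9.64 in non-metastatic tumors and 8.89, 9.05 and 8.90 in normal glands. At 2 decimals metastatic tumor 3 equalled normal gland 2, and metastatic tumor 2 stood highest, as it did for Odc1. The difference from normal gland was 0.62 in metastatic tumors (SE 0.26, limma adjusted p = 0.15, 95% interval 0.03 to 1.21) and 0.51 in non-metastatic tumors (SE 0.26, adjusted p = 0.20, 95% interval -0.08 to 1.10). The SD of Azin1 among metastatic tumors, 0.58, compares with a median of 0.14 over all genes tested. Without metastatic tumor 2 the metastatic difference was 0.31, and without metastatic tumor 3 it was 0.88.

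Oaz2, an antizyme gene (probe set 17548287, chromosome 9), had log2 levels of 8.91, 8.88 and 9.40 in metastatic tumors, 8.45, 8.89 and 9.30 in non-metastatic tumors and 8.98, 8.72 and 8.68 in normal glands. All 3 groups overlapped. The difference from normal gland was 0.27 in metastatic tumors (SE 0.23, limma adjusted p = 0.48, 95% interval -0.27 to 0.80) and 0.08 in non-metastatic tumors (SE 0.23, adjusted p = 0.84, 95% interval -0.45 to 0.62). A 2nd probe set of Oaz2 (17518628), with a mean over the 9 arrays of 7.72, gave differences of 0.40 (SE 0.30) and 0.01 (SE 0.30), so both probe sets were uncalled. The gene of the antizyme Oaz1 differed by -0.27 in metastatic tumors (SE 0.14, adjusted p = 0.24) and -0.18 in non-metastatic tumors (SE 0.14, adjusted p = 0.42). Azin2, another antizyme inhibitor gene, differed by -0.32 and -0.09 (adjusted p = 0.52 and 0.87).

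On the catabolic side, Sat1 and Smox were both higher in both tumor groups than in normal gland. Sat1 (probe set 17545595, chromosome X) had log2 levels of 11.23, 11.03 and 11.81 in metastatic tumors, 11.27, 11.80 and 11.78 in non-metastatic tumors and 10.47, 10.10 and 10.50 in normal glands. The lowest tumor lay above the highest normal gland, and the tumor groups overlapped. Sat1 rose by 1.00 in metastatic tumors (SE 0.23, limma adjusted p = 0.032) and by 1.26 in non-metastatic tumors (SE 0.23, adjusted p = 0.013), a 2.39-fold difference. The call in non-metastatic tumors held with every array left out in turn, while that in metastatic tumors was lost without metastatic tumor 1 (0.079), metastatic tumor 3 (0.085), normal gland 1 (0.075) or normal gland 2 (0.099).

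Smox, the spermine oxidase gene (probe set 17376510, chromosome 2), had the widest spread between groups of the 6 genes. Its log2 levels were 8.60, 8.46 and 8.14 in metastatic tumors, 9.71, 10.04 and 8.91 in non-metastatic tumors and 7.19, 7.08 and 7.68 in normal glands. The groups did not overlap: each non-metastatic tumor was above each metastatic tumor, and each metastatic tumor above each normal gland, with an SD of 0.24 among metastatic tumors, 0.58 among non-metastatic tumors and 0.32 among normal glands (n = 3 each). Smox rose by 2.23 in non-metastatic tumors over normal gland (SE 0.30, limma adjusted p = 0.0049), a 4.70-fold difference that ranked 29 from the top of 17478 genes. In metastatic tumors it rose by 1.08 (SE 0.30, adjusted p = 0.048), a 2.12-fold difference with rank 584. The non-metastatic call held with every array left out in turn, with differences of 1.99 to 2.56. The metastatic call was lost without metastatic tumor 1 (0.14), 2 (0.11) or 3 (0.089), non-metastatic tumor 1 (0.063) or normal gland 1 (0.13) or 2 (0.14), although the difference stayed between 0.97 and 1.27.

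**Figure D1:**
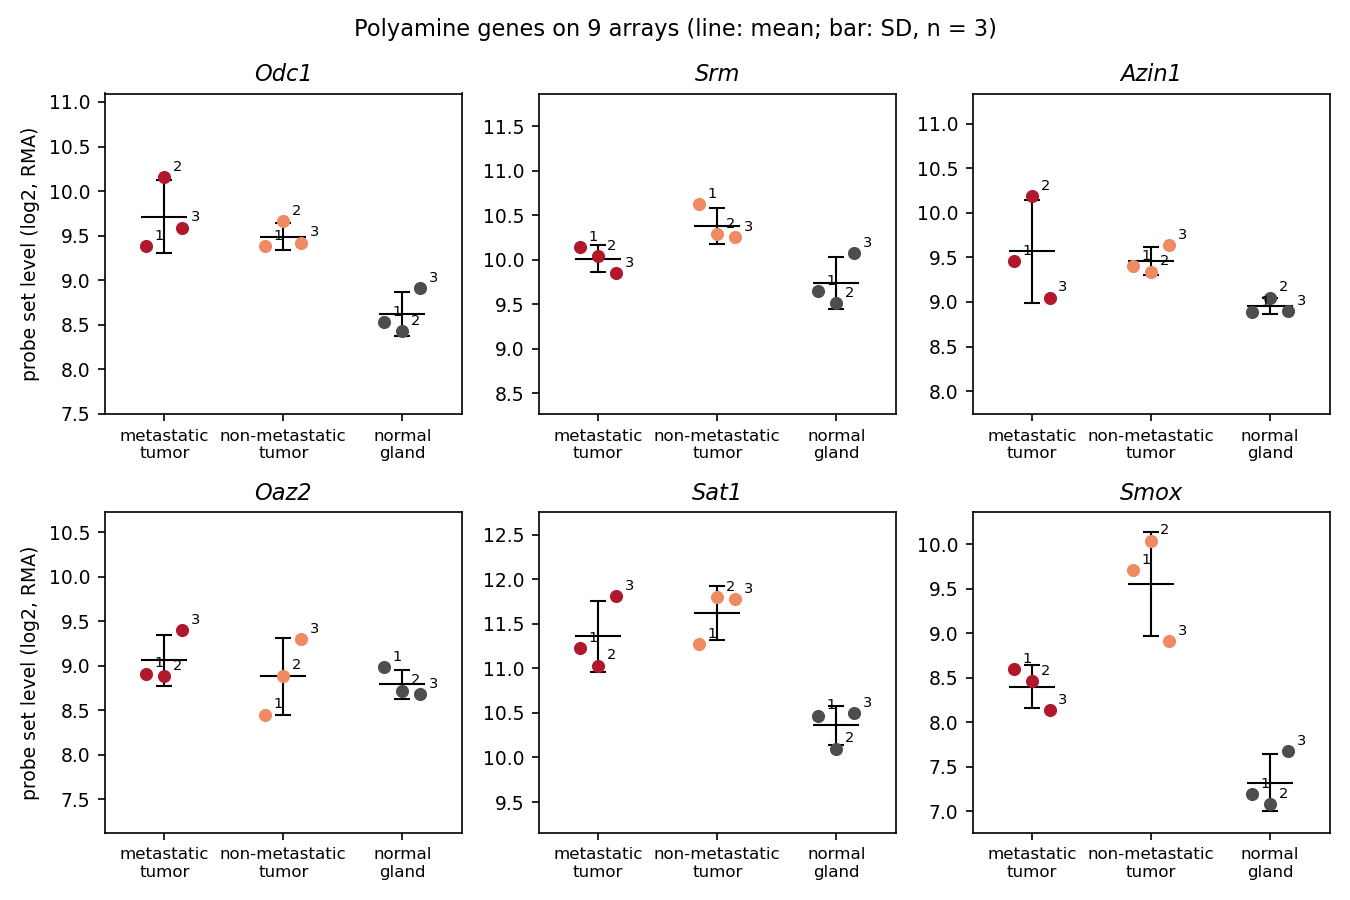
Log2 levels of 6 polyamine genes on each array, with replicate numbers, group means (lines) and SD (bars, n = 3), the vertical axes having the same length but different starts. All 6 tumors lie above the 3 normal glands for Odc1, Sat1 and Smox, and for Smox the non-metastatic tumors, from 8.91 to 10.04, also lie above the metastatic tumors, from 8.14 to 8.60.

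In numbers, 3 of the 6 genes rose in metastatic tumors against normal gland (Odc1, Sat1 and Smox), where 13.3% of all genes passed the test, 7.35% rising and 6% falling. In non-metastatic tumors 4 of the 6 rose (these and Srm), where 18.8% of all genes passed, 11.2% rising and 7.6% falling. None of the 6 fell in either. The median difference of the 6 genes was 0.81 in metastatic and 0.75 in non-metastatic tumors, beside medians of 0.0415 and 0.0454 over all genes tested. Both comparisons use the same 3 normal glands, so they are not separate observations. With all 6 tumors set against normal gland, Odc1 rose by 0.98 (SE 0.19, limma adjusted p = 0.010), Sat1 by 1.13 (SE 0.20, adjusted p = 0.0085) and Smox by 1.66 (SE 0.26, adjusted p = 0.0053), where 22.8% of all genes passed, 13.6% rising and 9.13% falling. These 3 calls held with every array left out in turn. In that comparison Srm differed by 0.45 (adjusted p = 0.063), Azin1 by 0.57 (0.10) and Oaz2 by 0.17 (0.57). Srm passed without normal gland 3 (0.020) and Azin1 without metastatic tumor 3 (0.040). For 4 of the 6 genes (Odc1, Sat1, Smox and, by less than the decimals printed here show, Azin1) all tumors lay above all normal glands, where 26% of all genes had no overlap and 15.7% had none and were higher.

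Normal gland 2, with its muscle and epidermis signal and its low luminal signal, was the lowest normal gland for Odc1, Sat1, Srm and Smox. It was the highest for Azin1. Without it 0 of the 6 genes passed in metastatic tumors and 2 (Sat1 and Smox) in non-metastatic tumors. The same counts were found without normal gland 1. Calls over all genes fell as well, from 2332 to 861 (metastatic) and from 3288 to 1517 (non-metastatic) without normal gland 2. Without normal gland 1 they fell to 793 and 1345. Without metastatic tumor 1 only Odc1 passed in the metastatic comparison, and without metastatic tumor 3 none of the 6 did. Over all genes 627 and 639 passed in these 2 runs. Without any single non-metastatic tumor, 2 genes (Sat1 and Smox) passed in the non-metastatic comparison. Over all genes 2512, 1524 and 2569 passed there without non-metastatic tumor 1, 2 and 3. Cell division markers were also higher in tumors: 5 of 11 rose in metastatic and 10 of 11 in non-metastatic tumors. Over all genes 7.35% and 11.2% rose. The mean log2 level of these markers was 8.38 to 9.24 and 8.93 to 9.33, against 7.12 to 8.22 in normal glands. Among tumors the order differed: metastatic tumor 2, highest for Odc1 and Azin1, had the lowest marker mean. Among normal glands, gland 3 was highest for these markers and for Odc1, Sat1, Srm and Smox. Luminal epithelial markers had median differences of 0.96 in metastatic and 1.13 in non-metastatic tumors, with 1 and 2 of 7 rising. Median differences were -1.43 and -2.14 for fibroblast, -0.70 and -1.11 for endothelial and -0.67 and -0.81 for macrophage markers. The part of cell division and of these cell types in the differences from normal gland was not tested. That of the lower adipocyte signal and of normal gland 2 was not tested beyond leaving out that array.

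**Figure D2:**
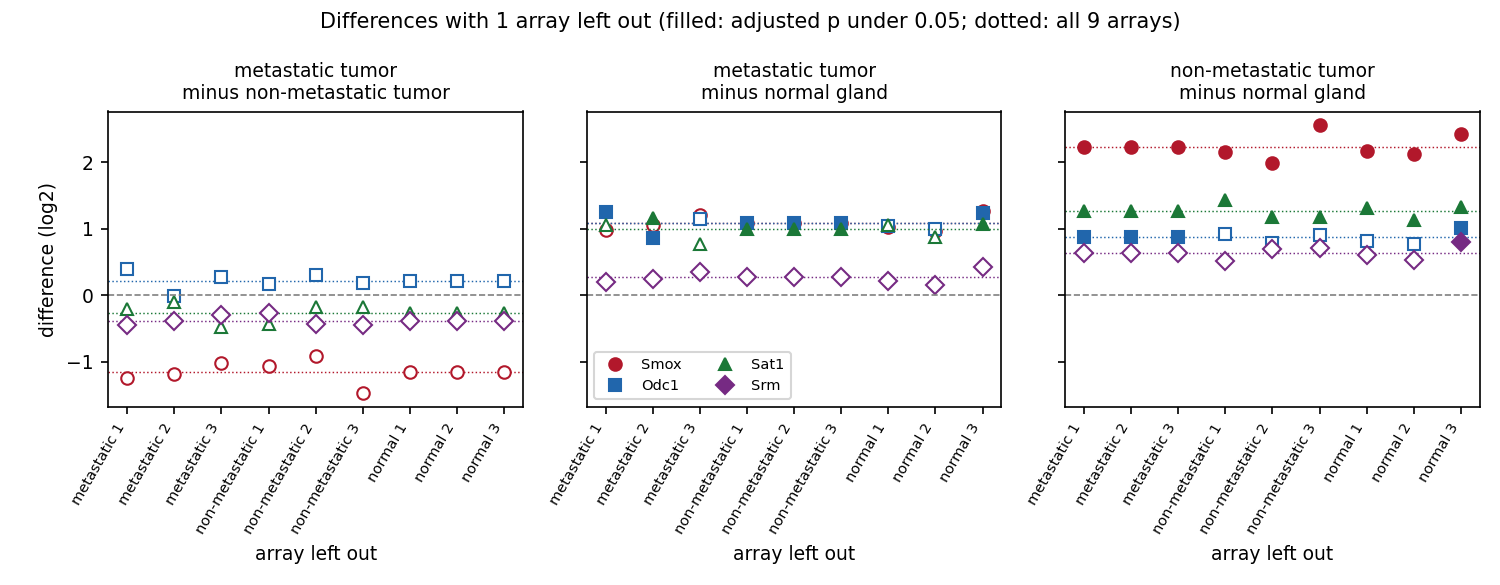
Differences between groups (log2, vertical axis) for Smox, Odc1, Sat1 and Srm when the array named on the horizontal axis is left out, with filled symbols where the limma adjusted p is under 0.05 and dotted lines at the value with all 9 arrays. Smox and Sat1 stay filled throughout in the non-metastatic comparison with normal gland. In the metastatic comparison with normal gland, Smox, Odc1 and Sat1 are open for some arrays and Srm for every array.

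Metastatic against non-metastatic tumors, 0 of the 6 genes passed, and over all genes limma called 1 (0.00572%), while 886 genes (5.07%) had an unadjusted p under 0.05. Smox had an unadjusted p of 0.0044 and was the only one of the 6 under 0.05. Its difference was -1.15 (SE 0.30, 95% interval -1.83 to -0.47, adjusted p = 0.88), or 0.451-fold in metastatic tumors, with a rank of 68 from the lowest of 17478 genes. Smox and Srm were lower in metastatic tumors without overlap between the groups, where 10.3% of all genes had no overlap and 5.84% had none and were lower. The Smox difference lay between -1.47 and -0.91 with each array left out. Its adjusted p came nearest to the threshold without non-metastatic tumor 3, whose Smox level was the lowest of its group (difference -1.47, adjusted p = 0.073).

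For Srm the difference between the tumor groups was -0.38 (SE 0.17, limma adjusted p = 0.88, 95% interval -0.78 to 0.02), and for Sat1 it was -0.26 (SE 0.23, adjusted p = 0.90, 95% interval -0.80 to 0.28). Odc1 differed by 0.22 (95% interval -0.28 to 0.72), Oaz2 by 0.18 (95% interval -0.35 to 0.72) and Azin1 by 0.11 (95% interval -0.48 to 0.70). Each of these intervals holds 0, and the largest difference it allows in either direction is under 1 on the log2 scale. The sign of the last 3 rested on a single tumor: without metastatic tumor 2, Odc1 differed by -0.01 and Azin1 by -0.21, and without non-metastatic tumor 1, Oaz2 differed by -0.03. The mean of 7 measured basal epithelial markers, of which 0 passed, also parted the tumor groups. Its log2 levels were 9.84 to 9.90 in metastatic tumors and 7.52 to 9.39 in non-metastatic tumors. Of these markers, Acta2, Myh11 and Cnn1 did not overlap between the tumor groups, while Krt14, Krt17, Trp63 and Oxtr did. All 8 skeletal muscle markers had lower means in metastatic than in non-metastatic tumors (median difference -1.03, 0 passed), and non-metastatic tumor 3 held the highest tumor level of 8.12. All 11 cell division markers also had lower means in metastatic tumors (median difference -0.26). Means were higher there for 7 of 7 fibroblast markers (0.63) and 6 of 7 endothelial markers (0.36), with 0 passing in each list. The part of cell division and of these cell types in the Smox difference was not tested beyond leaving out each array.

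**Figure D3:**
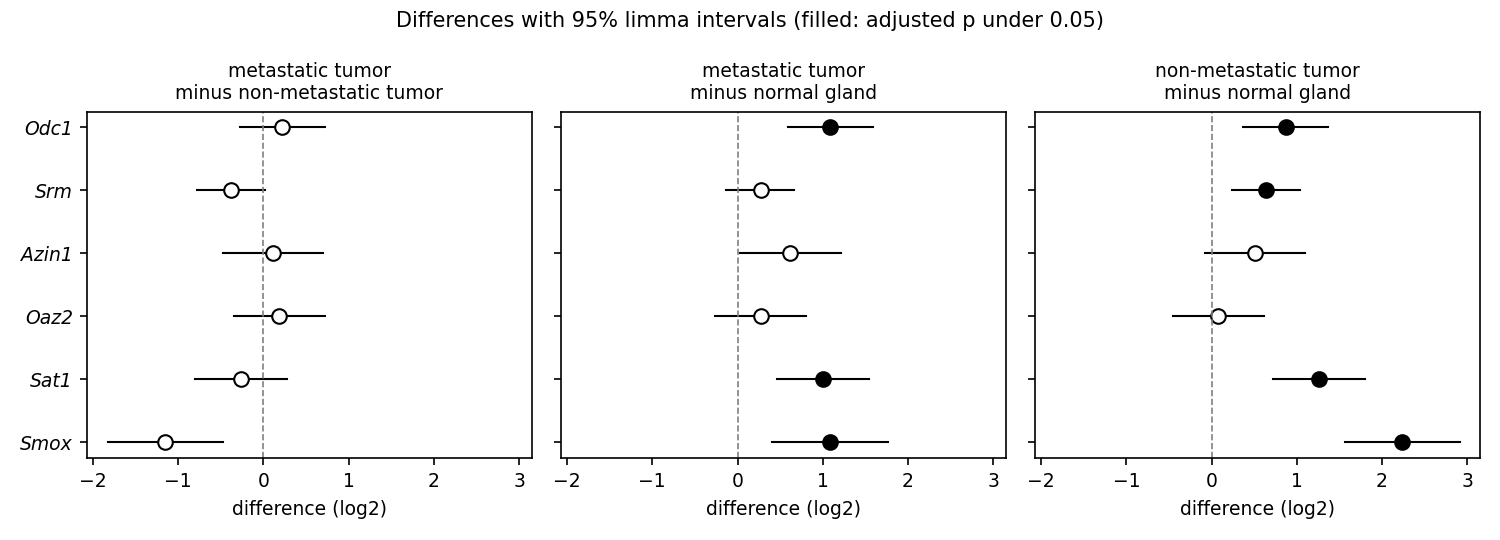
Differences between groups (log2, horizontal axis) with 95% intervals from limma for the 6 polyamine genes, filled where the adjusted p is under 0.05. Odc1, Sat1 and Smox are filled in both comparisons with normal gland and Srm in that of non-metastatic tumors, while between the tumor groups only the interval of Smox, from -1.83 to -0.47, lies wholly on 1 side of 0.

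The other genes of polyamine metabolism were taken from 8 lists by role, drawn up with earlier results known. Of 45 listed genes, 40 had a probe set of their own and 35 passed the filter. Against normal gland 3 of the 35 rose and 2 fell in metastatic tumors, and 4 rose and 4 fell in non-metastatic tumors, with median differences of 0.10 and 0.15. Their share called, 5 and 8 of 35, was near that of all genes tested, which was 13.3% and 18.8%. Of all genes, 7.35% rose and 6% fell in metastatic tumors, and 11.2% rose and 7.6% fell in non-metastatic tumors. The counts for single lists below are parts of the 5 and 8, and no list was tested as a set. Between the tumor groups 0 of the 35 passed.

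Among genes that supply arginine and ornithine, 1 of 7 rose in each tumor group. This was Slc7a1, the main importer of cationic amino acids such as arginine and ornithine. It was measured at log2 levels of 8.43, 8.58 and 8.45 in metastatic tumors, 8.73, 8.68 and 8.68 in non-metastatic tumors and 6.96, 6.57 and 7.59 in normal glands, without overlap between tumors and normal glands. Slc7a1 rose by 1.45 in metastatic tumors (SE 0.22, limma adjusted p = 0.010) and by 1.66 in non-metastatic tumors (SE 0.22, adjusted p = 0.0053), and both calls held with every array left out. Arg1, which splits arginine into ornithine and urea, differed by 0.63 and 0.85 (adjusted p = 0.51 and 0.35), with a range of 7.98 to 9.53 in metastatic tumors, 7.96 to 9.89 in non-metastatic tumors and 7.45 to 8.36 in normal glands. Oat, also in this list, differed by 0.10 in metastatic tumors (adjusted p = 0.90) and -0.80 in non-metastatic tumors (adjusted p = 0.18). Aldh18a1 differed by 0.81 and 1.14 (adjusted p = 0.27 and 0.12).

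Of 4 tested genes of other amine catabolism, 2 fell in each tumor group. Aoc3, a membrane copper amine oxidase abundant in adipocytes and vessels, was at log2 levels of 7.59, 9.05 and 7.68 in metastatic tumors, 7.69, 6.81 and 8.21 in non-metastatic tumors and 11.83, 12.06 and 10.97 in normal glands. It fell by 3.51 in metastatic tumors (SE 0.50, limma adjusted p = 0.0077) and by 4.05 in non-metastatic tumors (SE 0.50, adjusted p = 0.0043), beside the 8 of 8 white adipocyte markers that were lower. Hnmt, which methylates histamine, fell by 1.90 and by 2.62 (SE 0.28 each, adjusted p = 0.0087 and 0.0025). Sat2, a paralog of Sat1, differed by 0.07 and 0.01 (adjusted p = 0.80 and 0.98). Of 6 tested markers of mast cells, which store histamine, 5 fell in each tumor group as well, beside 6% and 7.6% of all genes. The other, Kit, a receptor that luminal progenitors of the mammary gland also carry, was higher in each, with group means of 11.75 in metastatic and 11.57 in non-metastatic tumors against 10.03 in normal glands. Fcer1a, also a mast cell marker, did not pass the filter. With Kit and Fcer1a included, mean log2 levels over all 7 measured mast cell markers were 5.56 to 6.02 in metastatic tumors. They were 5.27 to 6.79 in non-metastatic tumors and 7.75 to 8.72 in normal glands. The part of adipocytes and mast cells in these differences was not tested.

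The salvage of methylthioadenosine, the by-product of spermidine and spermine synthesis, had 0 of 5 genes past the threshold in metastatic tumors and 2 in non-metastatic tumors. Mtap, which starts this salvage, rose by 0.67 (SE 0.14, limma adjusted p = 0.017), with log2 levels of 9.27, 9.63 and 9.50 in non-metastatic tumors against 8.80, 8.96 and 8.62 in normal glands. Its call was lost without non-metastatic tumor 2 (0.056) or normal gland 1 (0.055). In metastatic tumors Mtap differed by 0.44 (adjusted p = 0.073). Apip, a later enzyme of the salvage, fell by 0.50 in non-metastatic tumors (SE 0.14, adjusted p = 0.047), a call lost without metastatic tumor 1 (0.063), 2 (0.058) or 3 (0.075), non-metastatic tumor 1 (0.097) or 2 (0.13), or normal gland 1 (0.12) or 2 (0.13). It differed by -0.48 in metastatic tumors (adjusted p = 0.061, and 0.047 without non-metastatic tumor 3).

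Hypusination, the modification of the translation factor eIF5A that uses spermidine, had 0 of 4 genes past the threshold in either tumor group. Eif5a itself differed by 0.17 in metastatic tumors (95% interval -0.07 to 0.41) and by 0.23 in non-metastatic tumors (95% interval -0.01 to 0.47), and Dhps, which carries out the first step, by 0.12 and 0.33 (limma adjusted p = 0.56 and 0.095). Of the genes for decarboxylated S-adenosylmethionine, the propylamine donor, Amd1, Amd2 and Mat2a were not analysed here, and neither of the 2 tested, Mat1a and Mat2b, passed.

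Among 6 tested transport genes, 1 rose in each tumor group and 1 fell in non-metastatic tumors. Slc3a2, the heavy chain of several amino acid exchangers that has also been linked to polyamine export, was at log2 levels of 11.48, 11.67 and 11.58 in metastatic tumors, 11.20, 11.36 and 11.30 in non-metastatic tumors and 11.03, 10.84 and 10.93 in normal glands. It rose by 0.64 in metastatic tumors (SE 0.10, limma adjusted p = 0.010), and this call held with every array left out. The rise of 0.35 in non-metastatic tumors (SE 0.10, adjusted p = 0.045) lost its call when any array was left out (adjusted p up to 0.13). Slc18b1, a vesicular polyamine transporter, fell by 0.89 in non-metastatic tumors (SE 0.20, adjusted p = 0.020), a call lost without non-metastatic tumor 2 (0.066), normal gland 1 (0.064) or normal gland 2 (0.060). In metastatic tumors it differed by -0.50 (adjusted p = 0.13).

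Of 5 regulators, 1 rose in each tumor group. Pmf1, which encodes a kinetochore protein known as a polyamine-modulated factor for Sat1 in human cells, rose by 0.64 in metastatic tumors (SE 0.15, limma adjusted p = 0.029) and by 0.51 in non-metastatic tumors (SE 0.15, adjusted p = 0.046). The metastatic call was lost without metastatic tumor 1 (0.097) or 3 (0.089) or normal gland 1 (0.090) or 2 (0.065), and the non-metastatic call when any array was left out (adjusted p up to 0.14). Myc, a transcription factor known to activate Odc1, was at log2 levels of 10.52, 10.46 and 10.99 in metastatic tumors, 11.02, 10.28 and 10.54 in non-metastatic tumors and 9.95, 8.90 and 10.29 in normal glands. Non-metastatic tumor 2 lay just below normal gland 3, and normal gland 2 was the lowest array. The differences of 0.95 and 0.90 did not pass (SE 0.36 each, adjusted p = 0.12 each).

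**Figure D4:**
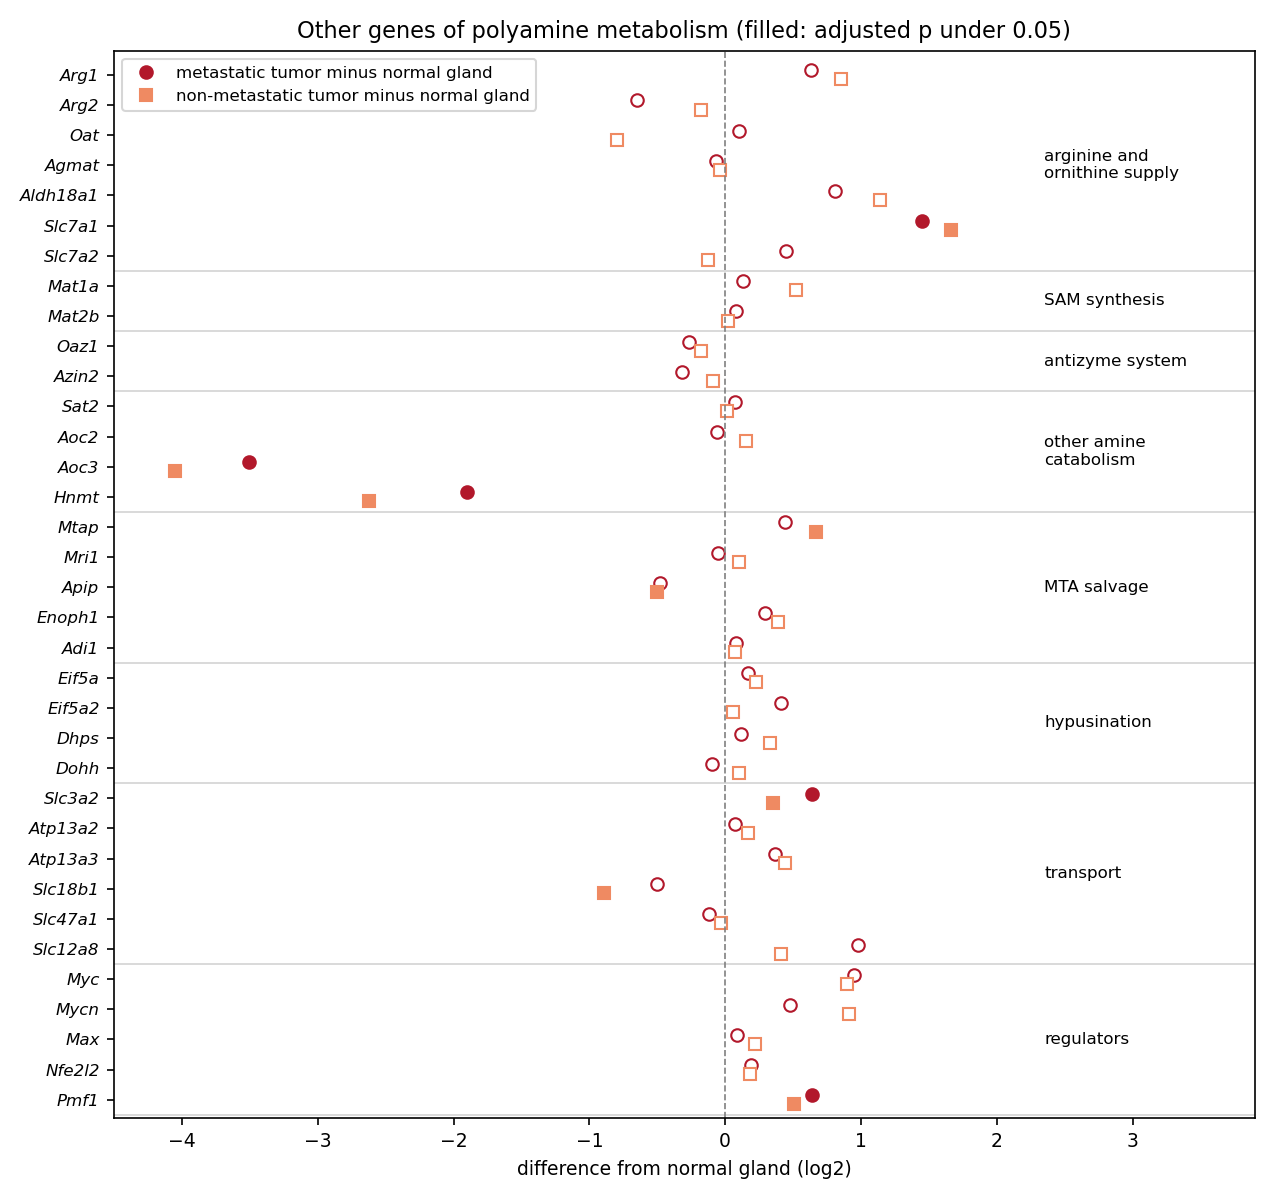
Differences from normal gland (log2, horizontal axis) of 35 other genes of polyamine metabolism, grouped by role, in metastatic tumors (circles) and non-metastatic tumors (squares), filled where the limma adjusted p is under 0.05. Aoc3 and Hnmt lie farthest to the left and Slc7a1 farthest to the right, and most symbols are open; SAM stands for S-adenosylmethionine and MTA for methylthioadenosine.

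The genes whose profile was most like that of Smox were found by the mean absolute difference between log2 values, each centred on its own mean over the 9 arrays. The nearest was Il1rap, the accessory chain of the interleukin-1 receptor, at 0.294, followed by Cmas (0.340), Gatm (0.343), Bcl2l14 (0.344) and Slc20a1 (0.345), where the median gene was at 0.807. Il1rap had log2 levels of 8.21, 7.56 and 7.91 in metastatic tumors, 9.60, 9.01 and 8.41 in non-metastatic tumors and 7.06, 6.91 and 6.90 in normal glands. Like Smox, it showed 3 groups without overlap in the same order, which follows largely from its choice by likeness on these arrays. For Odc1 the nearest were Rpl9 and Cd9 (0.138 each), Trib2 (0.145), Casd1 (0.161) and Mllt3 (0.162), with the median gene at 0.455. Trib2, like Odc1 and Azin1, was highest in metastatic tumor 2, at 8.86, and it too was chosen by likeness to Odc1. These neighbours depended on single arrays: 0 of the 5 nearest to Smox were kept without non-metastatic tumor 1, 0 of the 5 nearest to Odc1 without metastatic tumor 2 and 1 of those 5 without normal gland 2.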

How the data were processed

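The members and gene lists were chosen with earlier results of these data known. Per the submitters' processing notes, the authors made the deposited log2 values with RMA, a method that subtracts background, forces all arrays onto a common distribution and combines the probes of a set. Neither RMA's version nor the genome build is given in the sources used here. In all, the table held 41345 probe sets on 9 arrays, and scanner files were not used here. A platform annotation gave 23521 probe sets a single symbol and 1814 several, and 23328 matched a current Entrez gene. A gene was kept if, on 3 arrays or more, it exceeded the 30th percentile of that array's probe sets.

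All 9 arrays entered 1 limma 3.58.1 fit (R 4.3.3, lmFit and eBayes) that estimates a mean for each group and leaves 6 residual degrees of freedom. P-values were two-sided and adjusted by Benjamini-Hochberg over 17478 genes, with a threshold of 0.05, and the SE is limma's moderated one. Fits were tried on simulated data with independent normal noise, a simpler setting than these arrays, and no result here rests on that trial. The named genes were the measured members, called pathway genes (at most 4 a list), Oaz1 and Myc, and the 5 nearest profiles of Smox and Odc1. Arg1, Oat, Aldh18a1, Azin2, Sat2, Eif5a, Dhps, Mat1a and Mat2b were named outside this rule, after their values were seen. Replicate numbers name different mice, and promoter sequences came from RefSeq.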

Additional observations from a re-analysis of the deposited data

How the results depend on the processing

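Of the called differences of the 6 genes from normal gland, 2 sets kept their sign and call under every alternative run. These were Smox and Sat1 in non-metastatic tumors, and Smox, Odc1 and Sat1 in all tumors. The same held for Slc7a1, Aoc3 and Hnmt in each tumor group and for Slc3a2 in metastatic tumors. Between the tumor groups 0 of the 6 polyamine genes passed under any of 22 alternatives. With array weights 5 of the 6 genes passed for all tumors, and 15 and 18 pathway genes passed for metastatic and for all tumors, where 5 and 8 passed in the reported fit. With quantile normalisation 2 of the 6 passed in non-metastatic tumors. Without any filter, with quantile normalisation or with the replicate block, Smox in metastatic tumors had an adjusted p of 0.057, 0.053 and 0.086. Srm in non-metastatic tumors had 0.077 with quantile normalisation, 0.070 with the replicate block and 0.085 when the third group was left out of the fit, and Odc1 there had 0.053 with quantile normalisation. Srm passed for all tumors with median centring (0.034) and array weights (0.0040).

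With 1 array left out, 0 to 3 of the 6 genes passed in metastatic tumors, 2 to 4 in non-metastatic tumors and 3 to 4 for all tumors, and 4 to 6, 3 to 7 and 4 to 10 pathway genes. Over all genes the count was then 0 to 40 between the tumor groups, where the reported fit gave 1. It was 627 to 2832 for metastatic tumors (2332 in the reported fit, 6498 with array weights and 1299 with the replicate block), 1345 to 3714 for non-metastatic tumors (3288, and 5360 and 1533 with array weights and without the third group) and 1898 to 4117 for all tumors (3980, and 7603 with array weights).

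Arrays with the same replicate number had deviations from their group means that correlated between -0.28 and 0.17 over 9 pairs, and other pairs between -0.27 and 0.26, so the numbers were not taken as pairs. With the replicate block, 5 pathway genes passed in non-metastatic tumors, as without the third group.

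The sign turned in small, uncalled differences. Oaz2 in non-metastatic tumors was at -0.02 with quantile normalisation, at -0.10 with array weights and between -0.13 and 0.30 with 1 array left out. Between the tumor groups, Azin1 was at -0.01 with array weights and between -0.21 and 0.36 with 1 array left out, Odc1 then lay between -0.01 and 0.39, Oaz2 between -0.03 and 0.39, Oaz1 between -0.20 and 0.01 and Myc between -0.12 and 0.25. Apip was at -0.02 with median centring and between -0.10 and 0.13 with 1 array left out. Age as a covariate left Smox at -1.16 between the tumor groups (adjusted p = 0.80). Of the 5 profiles nearest to Smox and to Odc1, an alternative added after seeing the data kept 2 and 3 with quantile normalisation. The cause of these changes was not tested.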
